A study of Mus musculus with 2 samples.

Results

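The 10 genes described here encode proteins that coat the fat droplet of a cell or break down the fat inside it. They were chosen by name as perilipins (Plin1, Plin2, Plin3, Plin4, and Plin5), CIDE proteins (Cidea and Cidec), and lipases (Pnpla2, Lipe, and Mgll), and all 10 have a row among the 24091 genes of the deposited table. The table holds 2 RNA sequencing libraries of polyadenylated RNA from C57BL/6 mice, labelled as primary adipocytes. The sham-irradiated library is labelled as having received no radiation, and the irradiated library came from mice given pelvic radiation, for which the labels give 7.5 Gy and 5 days without saying whether this was the dose per day. Both titles also name PBS, with no statement of what was given it. In both groups the gonadal fat pads were taken at 2 months, collagenase was used to free the cells, and the fraction that floated was kept in culture for 3 days. The labels give neither the number nor the sex nor the age of the mice. As each group had 1 library, there was no replicate and no test, so intervals cover counting error only.

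Triglyceride in fat cells is stored in lipid droplets, each bounded by a single layer of phospholipid. Perilipins sit on that layer and control which enzymes reach the fat, and CIDE proteins let droplets exchange lipid so that large droplets form. During lipolysis the fatty acids are released in order by adipose triglyceride lipase (Pnpla2), hormone-sensitive lipase (Lipe), and monoacylglycerol lipase (Mgll). Plin1, Plin4, Cidec, and Lipe are known mainly from fat, Cidea from brown fat, and Plin5 from heart and other oxidative tissues, whereas Plin2, Plin3, Pnpla2, and Mgll are found in many cell types. Accordingly, 5 members were taken as adipocyte-specific (Plin1, Plin4, Cidea, Cidec, and Lipe) and 4 as broadly expressed.

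The libraries held 30600000 (sham) and 35000000 (irradiated) fragments, as recovered from the steps in the low values. Levels are given as FPKM, the fragments of a gene scaled to its length and to the library total, which allows genes of different length to be compared. The label of adipocytes was set against 20 fat cell markers that are not members, and 11 of them stayed below 1 FPKM in each library. Adipoq, which encodes the fat cell hormone adiponectin, had 5 fragments in the sham library and 10 in the irradiated library. The summed FPKM of these 20 markers was 413.5 and 445.6, none of the 20 was at 0 in both libraries, and the sum of 12 fibroblast and progenitor markers was 4981 and 4161. The other 9 reached an FPKM of 1 in at least a single library. They were Cd36, Fabp4, Lpl, Scd1, Fasn, Cebpa, Acaca, Pparg, and Car3. Cd36, at 117.7 and 160.8, and Fabp4, at 96.9 in both, are carriers of fatty acids that macrophages also express. Scd1 was at 60.87 and 56.79, and Fasn at 37.95 and 32.12. Cd36, Scd1, Fasn, Acaca, Pparg, and Car3 were named after their values were seen. The fat cell markers thus ran from a few fragments to high levels, and the cells are called here by their label only. In such bulk samples, fewer cells of a type and less RNA per cell cannot be told apart.

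The broadly expressed members had levels from 0.987 to 129 FPKM, and the adipocyte-specific members were all under 1 FPKM in both libraries. Plin2, which coats droplets in most cells that store lipid, was the highest member, with an FPKM of 103 in the sham library and 129 in the irradiated library. It was higher than 98.0% of all listed genes in the sham library. Plin3, a soluble perilipin that binds newly forming droplets, followed at 17.9 and 18.0. Pnpla2, the enzyme of the first step of lipolysis, reached 5.11 and 5.76. Mgll, the enzyme of the last step, was at 0.987 and 1.61. Among the adipocyte-specific members, Lipe had the highest FPKM, 0.840 in the sham library and 0.846 in the irradiated library. Plin1, the main coat protein of the fat cell droplet, was at 0.254 and 0.478. The summed FPKM of the 4 broadly expressed members was 127.1 and 154.2, and that of the 5 adipocyte-specific members was 1.53 and 1.91.

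**Figure D1:**
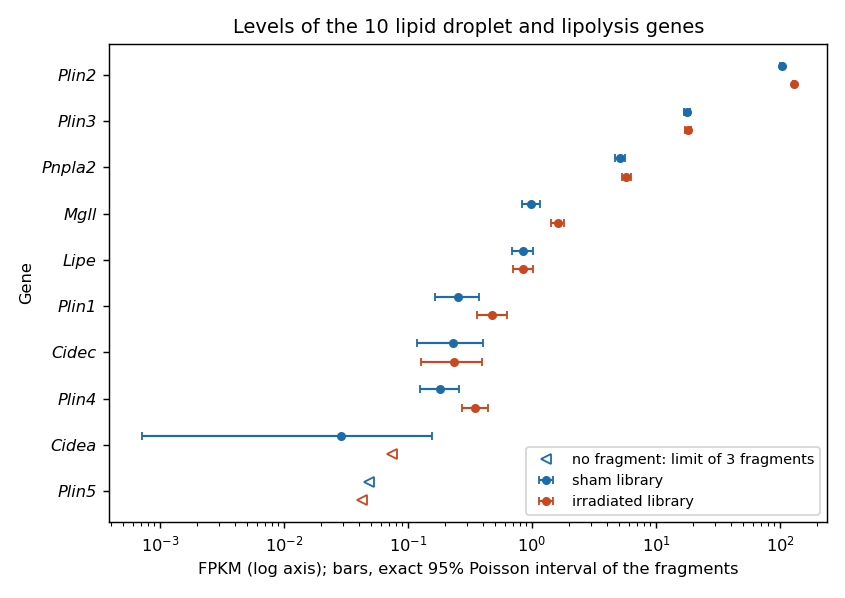
FPKM of each of the 10 members (rows) on a log axis, with 1 point per library and bars for the exact 95% Poisson interval of its fragments. Triangles stand at the FPKM that 3 fragments would give, for members with no fragment. Plin2 stands above 100 in both libraries, and every adipocyte-specific member lies under 1.

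The order of the levels from the highest was Plin2, Plin3, Pnpla2, Mgll, Lipe, and Plin1 in both libraries. The steps from Plin2 to Mgll were separated by more than counting error, being 5.77-fold, 3.51-fold, and 5.17-fold in the sham library. Mgll and Lipe overlapped in their intervals in the sham library and were apart in the irradiated library, where Mgll was 1.90-fold higher. Below Plin1, the sham library had Cidec and then Plin4, and the irradiated library had Plin4 and then Cidec, and neighbours among these 3 genes overlapped in their intervals. The lowest ranks, held by Cidea and Plin5, cannot be ordered at this depth.

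Within the perilipin family, Plin2 made up 84.9% of the summed FPKM of Plin1 to Plin5 in the sham library and 87.2% in the irradiated library. Plin3 took 14.7% and 12.2%. The fat cell perilipin Plin1 took 0.209% and 0.324%, and Plin4 0.149% and 0.235%. The FPKM of Plin2 was 406.8 times that of Plin1 in the sham library and 269.2 times in the irradiated library. Thus the transcripts of this family came almost wholly from its broadly expressed members in both libraries.

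None of the 10 members was higher or lower by at least 1 on the deposited log2(FPKM + 0.1) scale. Of the 14407 genes with at least 10 fragments in both libraries together, 1.1% lay at least 1 higher and 0.423% at least 1 lower. Of the members, 8 had at least 10 fragments, and Cidea and Plin5 did not. The 95% counting interval of the ratio lay above 0 on the log2 scale for 4 of the 8, namely Plin1, Plin2, Plin4, and Mgll, and included 0 for the other 4. None lay below 0. Over all 14407 genes, 21.4% had an interval above 0 and 14.6% had one below 0. Differences of at least 0.5 were found for 3 members, Plin1, Plin4, and Mgll, and for 6.82% of all genes in that direction, against 2.72% of all genes in the other. Each of these values compares a single library with another, and the spread between mice or cultures is unknown.

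**Figure D2:**
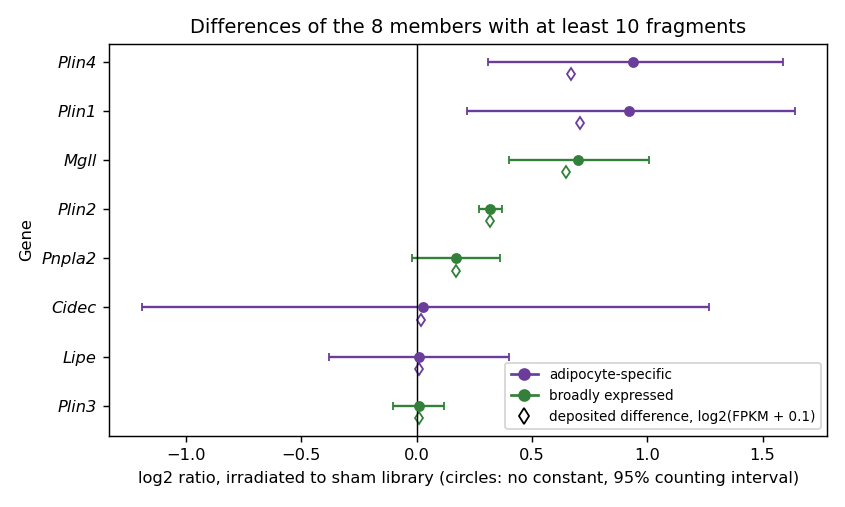
Log2 ratio of the irradiated to the sham library for the 8 members with at least 10 fragments. Circles give the ratio of FPKM without an added constant, with bars for its 95% counting interval, and open diamonds give the deposited difference. The intervals of Plin4, Plin1, Mgll, and Plin2 lie above 0, and the deposited constant of 0.1 lowers the differences of Plin1 and Plin4.

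The sequences upstream of these 4 members are shown so that the start regions of genes with a higher value in the irradiated library can be compared. They were taken from RefSeq on GRCm38.p6, which had an entry for 9 of the 10 members, and are written in the direction of the gene. Each ends before the first base annotated as transcribed from that gene. Capitals mark letters found in a search for AGGTCA (the hexamer bound by nuclear receptors such as the PPARs), CACGTG (the E-box), and GGGCGG (the GC box) on both strands, and for TATAA on the strand of the gene.
Plin1, chr7:79732904-79733026, minus strand: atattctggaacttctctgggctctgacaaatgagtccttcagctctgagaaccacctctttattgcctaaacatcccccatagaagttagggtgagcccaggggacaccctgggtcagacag
Plin2, chr4:86670061-86670309, minus strand: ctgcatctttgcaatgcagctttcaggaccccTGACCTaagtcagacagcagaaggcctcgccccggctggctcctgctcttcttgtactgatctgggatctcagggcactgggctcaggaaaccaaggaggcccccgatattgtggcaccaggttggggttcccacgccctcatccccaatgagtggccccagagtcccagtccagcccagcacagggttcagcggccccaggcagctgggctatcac
Plin4, chr17:56109804-56110032, minus strand: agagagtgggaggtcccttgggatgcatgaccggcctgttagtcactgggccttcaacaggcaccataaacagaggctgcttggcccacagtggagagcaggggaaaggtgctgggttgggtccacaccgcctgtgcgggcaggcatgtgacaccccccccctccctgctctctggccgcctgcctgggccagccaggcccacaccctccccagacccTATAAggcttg
Mgll, chr6:88724162-88724411, plus strand: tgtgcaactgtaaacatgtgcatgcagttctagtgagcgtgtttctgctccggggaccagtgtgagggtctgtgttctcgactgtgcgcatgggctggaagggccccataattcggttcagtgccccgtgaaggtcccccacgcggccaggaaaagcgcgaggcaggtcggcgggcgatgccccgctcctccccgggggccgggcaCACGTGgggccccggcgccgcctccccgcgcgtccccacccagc
Within 250 bases upstream of the start, Plin2 held AGGTCA once, on the opposite strand, which reads TGACCT in the line above. Of the 32851 RefSeq windows of that length, 14.0% held this hexamer. Plin4 held TATAA, found in 16.0% of windows. The window of Mgll held CACGTG, present in 6.02% of windows. None of the letters searched was in the window of Plin1, of which the 123 bases outside annotated exons are printed. GGGCGG, found in 32.7% of windows, was in none of these 4 windows. Mgll has a further RefSeq start inside the deposited gene, and its window, not printed, held GGGCGG on the opposite strand. Of the other members with an entry, Plin3, Plin5, Pnpla2, and Lipe held GGGCGG in at least 1 window, and Cidec did not. Plin5 also held AGGTCA and TATAA, and Lipe held CACGTG, so these letters were not particular to the 4 members above. The paired form AGGTCANAGGTCA was in 0.0335% of windows and in none of these 4. A match of letters is a description and not a bound site.

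Plin1 (perilipin 1, chr7:79721164-79732776, minus strand) guards the droplet of the resting fat cell and, once phosphorylated, admits the lipases. It had 26 fragments in the sham library and 56 in the irradiated library. The deposited difference was 0.71, and the ratio of FPKM without the added constant was 1.89 (95% counting interval 1.16 to 3.12). Plin1 was higher in the irradiated library by more than counting error, at a level under 0.5 FPKM in both.

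Plin4 (perilipin 4, chr17:56100591-56109802, minus strand) coats small droplets in fat cells and carries a long run of similar repeats. It had 32 fragments in the sham library and 70 in the irradiated library, a deposited difference of 0.67 and a ratio of 1.92 (interval 1.24 to 3.00). Its FPKM was 0.715 times that of Plin1 in the sham library and 0.727 times in the irradiated library. These ratios rest on few fragments, and no interval was computed for them. By the GENCODE annotation, 17 of its 5777 exon bases overlap those of Hdgfl2 on the opposite strand, a gene with an FPKM of 18.2 in the sham library and 18.9 in the irradiated library. The kit was stranded, but the sources used here do not say whether the counting used strand, and the part of this overlap in the value of Plin4 was not tested. Plin1 and Plin4 belong to the 3195 genes with at least 10 fragments and an FPKM under 1 in both libraries, and 12.5% of these had an interval above 0, 4.19% had one below 0, and 16.1% were higher by at least 0.5.

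Plin5 (perilipin 5, chr17:56111601-56117548, minus strand) links droplets to mitochondria in oxidative tissues. It had no fragment in either library, and 3 fragments would have given an FPKM of 0.0483 in the sham library and 0.0422 in the irradiated library. It lies 1798 bases from Plin4, and its neighbour was detected while Plin5 was not. Of 8 striated muscle markers, 4 had no fragment in either library, and the summed FPKM of that list was 2.23 and 3.51. Of the 3 with at least 10 fragments, 1 had an interval above 0 and 2 included 0, with a median difference of -0.11. The 1 was Acta1, with a difference of 1.67 on 27 and 110 fragments, named after its values were seen. Over all genes, 21.4% had an interval above 0 and 1.1% were higher by at least 1.

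Plin2 (perilipin 2, also called adipophilin, chr4:86656565-86670059, minus strand) is stabilised by the droplets it coats and is a common mark of lipid-loaded cells. It had about 5927 fragments in the sham library and 8470 in the irradiated library. The FPKM of 103 and 129 gave a ratio of 1.25 (interval 1.21 to 1.29), a narrow interval because of the high count. Values are also given for 14 markers of macrophages, cells that also express Plin2. Of these, 9 had an interval above 0, 1 had one below 0, and 4 included 0. The shares over all genes with at least 10 fragments were 21.4% above 0 and 14.6% below. The summed FPKM of the 14 was 721.7 in the sham library and 837.8 in the irradiated library. None of the 14 was at 0. Trem2 and Gpnmb, both known from lipid-laden macrophages, had differences of 0.83 and 0.78, and Lyz2, the macrophage marker of highest level, had a difference of -0.11. Trem2, Gpnmb, and Lyz2 were named after their values were seen. The part of these cells in the value of Plin2 was not tested.

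Plin3 (perilipin 3, chr17:56278962-56290511, minus strand) had about 1177 and 1357 fragments in the sham and irradiated libraries. Its ratio was 1.01 (interval 0.931 to 1.09), which bounds the change that counting error allows. The FPKM of Plin2 was 5.76 times that of Plin3 in the sham library and 7.15 times in the irradiated library.

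Both CIDE genes were at or near the floor. Cidec (also called FSP27, chr6:113424634-113435760, minus strand), which is needed for the single large droplet of the white fat cell, had 12 fragments in the sham library and 14 in the irradiated library. The ratio was 1.02, with a wide interval from 0.438 to 2.41. Cidea, on chromosome 18 from 67343564 to 67367794, had 1 fragment in the sham library and none in the irradiated library, and 3 fragments would have given an FPKM of 0.0847 and 0.0740. No difference was detectable for either gene at this depth. The brown fat marker Ucp1 also had no fragment in either library, and 9 of 10 brown and beige fat markers stayed below 1 FPKM in each library. Of the 8 with at least 10 fragments, 2 had an interval above 0, none had one below, and 6 included 0, with a median difference of 0.05. The share above 0 was 21.4% over all genes and 12.5% over genes under 1 FPKM in both libraries. The 2 were Dio2, with a difference of 1.21 on 45 and 146 fragments, and Kcnk3, with a difference of 0.65. Both were named after their values were seen, and 1.1% of all genes were higher by at least 1.

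The values of the 3 lipases follow in the order of their steps. Pnpla2 (adipose triglyceride lipase, chr7:141455188-141460743, plus strand) had 423 fragments in the sham library and 545 in the irradiated library, with a ratio of 1.13 (interval 0.990 to 1.28). Lipe (hormone-sensitive lipase, chr7:25379527-25395987, minus strand) had 104 and 120 fragments and a ratio of 1.01 (interval 0.769 to 1.32). Mgll (monoacylglycerol lipase, chr6:88724412-88828360, plus strand) had 139 and 259 fragments and a ratio of 1.63 (interval 1.32 to 2.015), with a deposited difference of 0.65. Of the 3 lipases, Mgll alone had an interval above 0 on the log2 scale, and whether the lipases differed from each other in this was not tested.

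The first enzyme of the pathway stood far above the second at the RNA level. Pnpla2 had 6.08 times the FPKM of Lipe in the sham library and 6.804 times in the irradiated library. Relative to Mgll, Pnpla2 was 5.17 times as high in the sham library and 3.59 times in the irradiated library. Antisense genes share exon bases with Lipe and Mgll in GENCODE. For Lipe these were 918 of 5886 exon bases shared with 4732471J01Rik, which had an FPKM of 0.0303 and 0.0331, and for Mgll they were 167 of 5077 bases shared with Gm26588. Without knowledge of strand in the counting, fragments of these bases cannot be told apart.

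**Figure D3:**
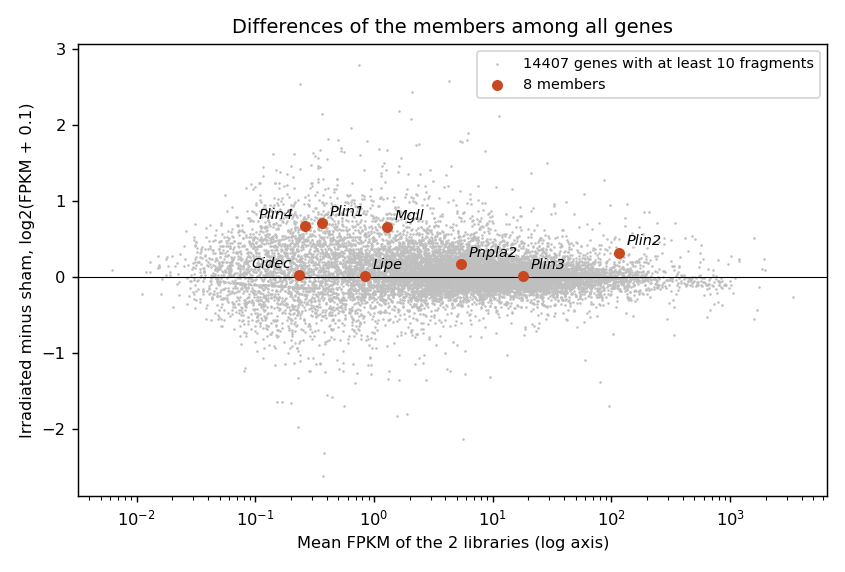
Difference between the libraries (irradiated minus sham, log2(FPKM + 0.1)) against the mean FPKM on a log axis, for 14407 genes with at least 10 fragments (grey) and the 8 members among them (red). The spread of all genes is widest at low levels, where Plin1, Plin4, Cidec, and Lipe lie, and Plin2 lies at a level where the spread is narrow.

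The adipocyte-specific members lay below the broadly expressed members in FPKM, with Lipe and Mgll overlapping in the sham library, and the differences between the libraries covered overlapping ranges in both groups. The median deposited difference of the 5 adipocyte-specific members was 0.02, with single values from -0.36 to 0.71. Without Cidea, which had 1 fragment in all, it was 0.345, and as a ratio of FPKM with no added constant, which leaves Cidea out as well, it was 0.47. For the 4 broadly expressed members the median was 0.245, with values from 0.01 to 0.65, so the order of the group medians depended on Cidea. The median over all 14407 genes with at least 10 fragments was 0.02. Each group had 4 members with at least 10 fragments, of which 2 had an interval above 0 and 2 included 0. The share above 0 was 21.4% over all genes and 12.5% over genes under 1 FPKM in both libraries.

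The lipase Pnpla2 works with protein partners, and these were examined with other lipases and fatty acid carriers in a list of 17 genes. Of the 15 with at least 10 fragments, 5 had an interval above 0 and none had one below 0, and none differed by at least 1. For comparison, 21.4% of all genes had an interval above 0 and 14.6% had one below. The median difference of the 15 was 0.07. Abhd5, the activator of the Pnpla2 enzyme (also called CGI-58), had an FPKM of 12.4 in the sham library and 12.6 in the irradiated library. G0s2, an inhibitor of the same enzyme, was lower, at 1.75 and 2.49, on 45 and 73 fragments. Its difference between the libraries was 0.48, with 0 in its interval (log2 ratio -0.05 to 1.07). Hilpda, another inhibitor, was at 12.3 and 15.04, a difference of 0.29 (interval of the log2 ratio 0.11 to 0.48). The activator was thus 2.42 times as high as Pnpla2 itself in the sham library and 2.19 times in the irradiated library, and Pnpla2 was 2.91 and 2.32 times as high as G0s2.

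Lipa, the acid lipase that digests lipid in lysosomes, was far higher than the droplet lipases, at an FPKM of 53.4 in the sham library and 71.4 in the irradiated library. Its difference was 0.42 (interval 0.37 to 0.47). Fabp5, a fatty acid carrier known from macrophages and skin, was at 94.3 and 123.5, a difference of 0.39 (interval 0.32 to 0.46). The fat cell carrier Fabp4 was at 96.9 in both libraries, with a difference of 0.00 (interval -0.09 to 0.09). Lpl, the lipase that works on lipoproteins outside the cell, was at 68.0 and 66.6. Ces1d, a carboxylesterase of fat cell droplets, had 3 and 8 fragments and no detectable difference.

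Hormones start lipolysis through cyclic AMP and protein kinase A, and insulin opposes them. Of the 22 genes of this list with at least 10 fragments, 6 had an interval above 0, 2 had one below 0, and 14 included 0. Over all genes, these shares were 21.4% above 0 and 14.6% below. The median of the 22 was 0.06. Of all 24 genes of the list, 7 stayed below 1 FPKM in each library. The adrenergic receptors Adrb1 and Adrb3, named after their values were seen, were at or near the floor. Adrb1 had 0 fragments in the sham library and 6 in the irradiated library, and Adrb3 had 3 and 5. The 3 genes of highest level encode signalling subunits. Gnas, the stimulatory G protein subunit, was at 83.2 in the sham library and 82.0 in the irradiated library, Prkaca, a catalytic subunit of protein kinase A, was at 34.9 in both, and Prkar1a, a regulatory subunit, was at 111.3 and 113.7. Among the largest differences of the list were those of receptors under 1 FPKM. Adra2a, an adrenergic receptor that restrains lipolysis, was at 0.569 and 0.866, a difference of 0.53. The interval of its log2 ratio without the added constant was 0.16 to 1.07. Hcar2, a receptor that restrains lipolysis, had a difference of -0.53 on 24 and 17 fragments, with 0 in its interval.

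Among genes of droplet formation and other droplet or membrane proteins, 20 had at least 10 fragments, with a median of 0.035. Of these 20, 5 had an interval above 0 and 3 below, against 21.4% and 14.6% of all genes. Cav1, Ehd2, and Ptrf (also called Cavin1), which form or stabilise caveolae in fat cells and other cells, had the highest levels. Ptrf was at an FPKM of 60.03 and 70.4, a difference of 0.23 (interval 0.19 to 0.27), and the differences of Cav1 and Ehd2 were 0.11 and 0.12. Hsd17b11, a droplet dehydrogenase, had a difference of 0.23 (interval 0.09 to 0.37). Acsl3, which activates fatty acids on new droplets, was lower in the irradiated library, with a difference of -0.29 (interval -0.42 to -0.17). Nsdhl, an enzyme of cholesterol synthesis found on droplets, was also lower, with a difference of -0.33 (interval -0.48 to -0.19).

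The 14 transcription factors listed as acting on perilipin and lipase genes had a median difference of 0. Their intervals lay above 0 for 1, below 0 for 2, and included 0 for 11. Over all genes, 21.4% lay above 0 and 14.6% below. Hif1a, the oxygen-regulated factor, had the highest level and the largest difference, from 154.2 in the sham library to 110.6 in the irradiated library (difference -0.48, interval -0.51 to -0.45). Cebpb, which acts early in fat cell formation, was at 43.9 and 38.8, a difference of -0.18 (interval -0.27 to -0.09). Cebpa, which acts later, was at 13.5 and 14.4 with 0 in its interval. Ppara and Ppargc1a, regulators of fatty acid oxidation, had differences of -0.28 and -0.36 at FPKM under 0.2, both with 0 in the interval. Pparg, the main factor of fat cell formation, named after its value was seen, was at 4.59 and 4.69, a difference of 0.03 (interval -0.17 to 0.23).

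**Figure D4:**
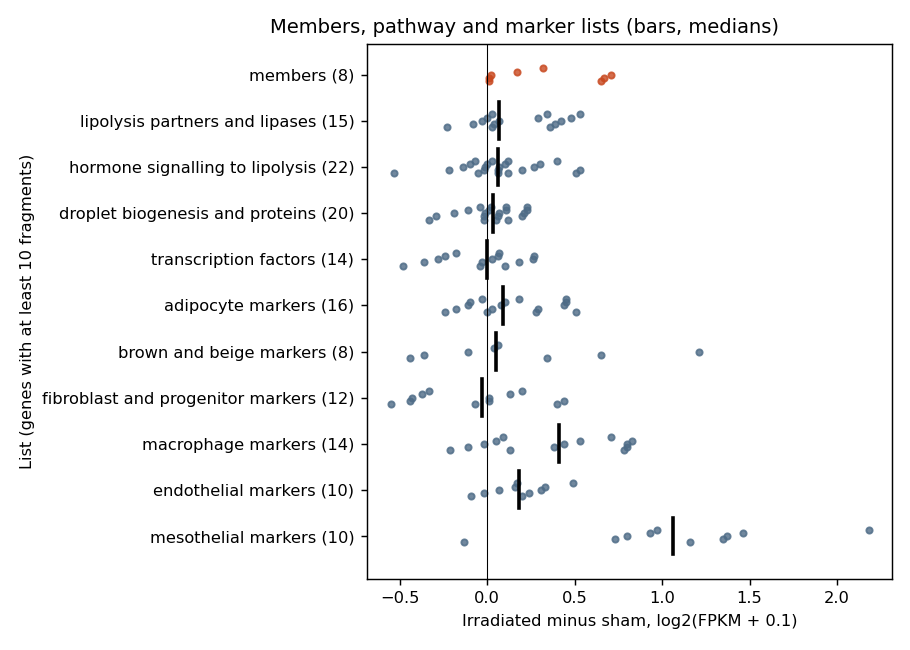
Difference between the libraries (irradiated minus sham, log2(FPKM + 0.1)) for each gene with at least 10 fragments in the members (red) and in pathway and marker lists (blue), with the number of genes in brackets. Bars are list medians. The 4 pathway lists have medians from 0 to 0.07, and the macrophage and mesothelial marker lists have medians of 0.41 and 1.065.

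Markers of other cell types gave mixed counts. Of 10 mesothelial markers, 5 were higher by at least 1, as were 1.1% of all genes, 9 had an interval above 0 and 1 had one below 0, and their summed FPKM was 37.9 in the sham library and 55.4 in the irradiated library, with none of the 10 at 0. Their median FPKM was 0.927 and 2.76, and Wt1, the marker of highest level, had a difference of -0.13. For 10 endothelial markers, 5 had an interval above 0 and none below, with summed FPKM of 56.4 and 63.7 and none at 0. Among 12 fibroblast and progenitor markers, 4 had an interval above 0 and 6 had one below, and none was at 0. Of 16 fat cell markers with at least 10 fragments, 1 had an interval above 0 and 3 had one below. Beside these counts, 21.4% of all genes had an interval above 0 and 14.6% had one below. The part of these cell types in the values of Plin1, Plin4, and Mgll was not tested.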

How the data were processed

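The authors deposited log2 values of FPKM with 0.1 added, rounded to 2 decimals, for 24091 genes in 2 libraries. The submitters' processing notes name the build mm10, with no aligner, counting tool, or filter named. Of 23349 symbols shared with RefSeq on GRCm38.p6, 17741 lay on the same chromosome with an identical start or end. FPKM was recovered by removing the constant. The library totals were those at which FPKM multiplied by length and total came closest to whole fragments over genes with up to 20 fragments. All 3590 and 3587 such genes lay within 0.12 of a whole number. Counts of highly expressed genes are approximate because of the rounding. The procedure was tested on simulated data.

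Differences are irradiated minus sham. Counting intervals are exact 95% binomial (Clopper-Pearson) for ratios and Poisson for levels. An interval given beside a difference is that of the log2 ratio without the added constant, which departs from the deposited difference at low FPKM. All intervals cover counting error only and leave out the spread between mice or cultures. They also take fragments as independent, which PCR copies of a fragment are not, so they may be too narrow. Genes with at least 10 fragments in both libraries together were counted. The alternatives were other added constants, centring, scaling, filters, thresholds, and groupings. The 10 members and the lists were chosen with earlier results of these data known. From each pathway list, the 3 genes of highest level and the 3 of largest difference are named, with Abhd5, G0s2, and Hilpda in all cases, and 1 gene of this rule is not reported here. No likeness between genes was computed over 2 libraries. Fat cell, brown fat, fibroblast, macrophage, endothelial, mesothelial, and striated muscle markers came from general knowledge. The software was SciPy 1.17.1, numpy 2.4.6, matplotlib 3.10.9, and pandas 2.3.3, under Python 3.11.15.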

Additional observations from a re-analysis of the deposited data

How the results depend on the processing

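No paired analysis was possible because each group had 1 library, and no replicate could be left out. Of 38 differences of members computed under another constant, centring, or scaling, 36 stayed within the counting interval (for Plin5, which has none, within 0.05). None with an interval off 0 changed sign, which another added constant could not have brought about. The values without a constant are those on which the intervals were built, so they could not leave them. Centring and scaling shifted the genes only slightly. The count of 36 is thus weak evidence of stability, and log2(FPKM + 1) was the setting most able to move a value. The 2 outside the counting interval were those of Plin4 and Mgll with log2(FPKM + 1). The intervals of Cidea and Cidec are so wide, and Plin5 had no fragment, that these 3 genes could hardly leave their bounds. With log2(FPKM + 1), which shrinks low values, Plin1 had a difference of 0.24, Plin4 0.19, and Mgll 0.39, so none of the 3 reached 0.5. With a threshold of 0.5 in place of 1, the number of members higher was 3. Over all genes, the 158 higher and 61 lower by at least 1 became 23 and 10 with log2(FPKM + 1), 451 and 203 without a constant, 982 and 392 with the threshold of 0.5, and 267 and 148 without a filter. Under a filter of FPKM 1 or more in either library, 89 were higher. The centring moved all genes by -0.02 and the scaling by -0.0142. As shares of fragments, which favour long genes, the perilipins stood in the sham and irradiated libraries at 0.363% and 0.563% (Plin1), 82.8% and 85.1% (Plin2), 16.4% and 13.6% (Plin3), and 0.447% and 0.703% (Plin4). The median of the adipocyte-specific members was 0.02 as deposited, 0.47 with no added constant, and 0.345 without Cidea, an omission chosen after seeing the data. These medians come from the same counts and differ through the scale or the omission of Cidea. No interval was computed for a group median, and that of the middle member, Cidec, does not measure its spread. None of the adipocyte-specific members passed the filter of FPKM 1, so it gave no value. The median of the broadly expressed members lay between 0.17, with Lipe added, and 0.25. Depth limits Cidec, Cidea, and Plin5, which had 26 fragments or fewer in both libraries together.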
